A study of Homo sapiens with 9 samples.

Results

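Genes that encode desmosomes and adherens junctions were examined in Cal-27 cells, a human line of tongue squamous carcinoma cells that is wild type per the labels. The 10 genes were chosen by symbol: CDH1, CTNNB1 and PLEKHA7 of the adherens junction, and DSG2, DSG3, DSC2, DSC3, DSP, JUP and PKP1 of the desmosome. All 10 were found among the 16366 genes of the deposited table, and all 10 had enough counts to be tested. RNA came from cells that had spent 48 h in co-culture with hOMF exosomes or with those of cancer-associated fibroblasts (CAF exosomes), and from a control group labelled NC. Exosomes are small vesicles that cells shed, with protein and RNA inside. All groups were grown in the same high-glucose DMEM with fetal bovine serum, and the labels neither spell out hOMF (also written hMOF) nor say what the control cells received. Each of the 3 groups held 3 libraries, all of a single cell line. The labels do not say that the replicates came from separate cultures, so p-values reflect only how far these libraries spread, which may be technical.

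Both kinds of junction hold neighbouring epithelial cells together through cadherins, membrane proteins whose outer parts bind those of the next cell. At adherens junctions E-cadherin holds beta-catenin and p120-catenin at its inner tail, and the complex is linked to actin filaments. At desmosomes the desmogleins and desmocollins bind plakoglobin and plakophilins, and desmoplakin ties these to keratin filaments, which gives squamous epithelium of mouth and skin its mechanical strength. Loss of these contacts is a well-known feature of invasive carcinoma cells.

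Levels are given as CPM, counts relative to the library total after scaling by TMM factors, which adjust totals for composition. Differences are on the log2 scale, with a standard error (SE), and were tested in 1 quasi-likelihood fit of edgeR to 9 libraries and 12470 genes. The threshold for calling a gene was 0.05 after Benjamini-Hochberg adjustment. Library totals were 11185672 to 12779101 estimated counts. Among the markers of squamous epithelium, KRT5 stood at 702 to 1264 CPM, KRT17 at 1856 to 3190 CPM and TP63 at 225 to 306 CPM in the 9 libraries. Other markers of this list were low, with KRT14 at 6.70 to 23.1 CPM, KRT6A at 5.73 to 10.9 CPM and KRT16 at 3.61 to 7.26 CPM. SOX2 was at most 0.851 CPM. Control replicate 3 stood apart from the rest. It lay at 29.8 and -17.9 on the first and second principal components, and its leukocyte gene PTPRC was at 7.50 CPM, against at most 0.0909 CPM in the other 8 libraries. VIM, the mesenchymal filament gene, was at 38.1 CPM there, against at most 0.632 CPM elsewhere. The junction genes' differences from control are therefore also given without this library.

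The clearest feature of the junction genes was a fall of PLEKHA7 with both kinds of exosome, by 2.29-fold with CAF exosomes and 1.76-fold with hOMF exosomes. PKP1 rose 1.57-fold with CAF exosomes. The other 8 genes, which include E-cadherin, beta-catenin and the desmosomal cadherins, did not pass the test in either comparison with control. Thus 1 gene was called higher and 1 lower with CAF exosomes, against 9.51% and 8.64% of all tested genes (18.2% in either direction). With hOMF exosomes 0 were called higher and 1 lower, against 11.8% and 11.4% of all genes (23.2% in either direction). Shares of 1 in 10 are close to this background, so the number of calls does not set the junction genes apart. At an unadjusted p under 0.05 there were 5 of 10 junction genes in each comparison, beside 32.8% of all genes for CAF exosomes and 36.7% for hOMF exosomes. The median log2 difference of the 10 genes was 0.05 with CAF exosomes and -0.06 with hOMF exosomes, beside -0.01 and 0.00 over all tested genes. Without control replicate 3 the medians were -0.04 and -0.16, so that the first turned in sign. The positive differences then went from 6 to 3 of 10 with CAF exosomes and from 4 to 3 of 10 with hOMF exosomes. Other libraries moved these counts too: 3 of 10 were positive with CAF exosomes without CAF exosome replicate 1. With hOMF exosomes 6 of 10 were positive without control replicate 1. Both comparisons use the same control libraries and are thus not independent of each other. In RNA of a whole culture, fewer cells that express a gene and less RNA of it per cell cannot be told apart.

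**Figure D1:**
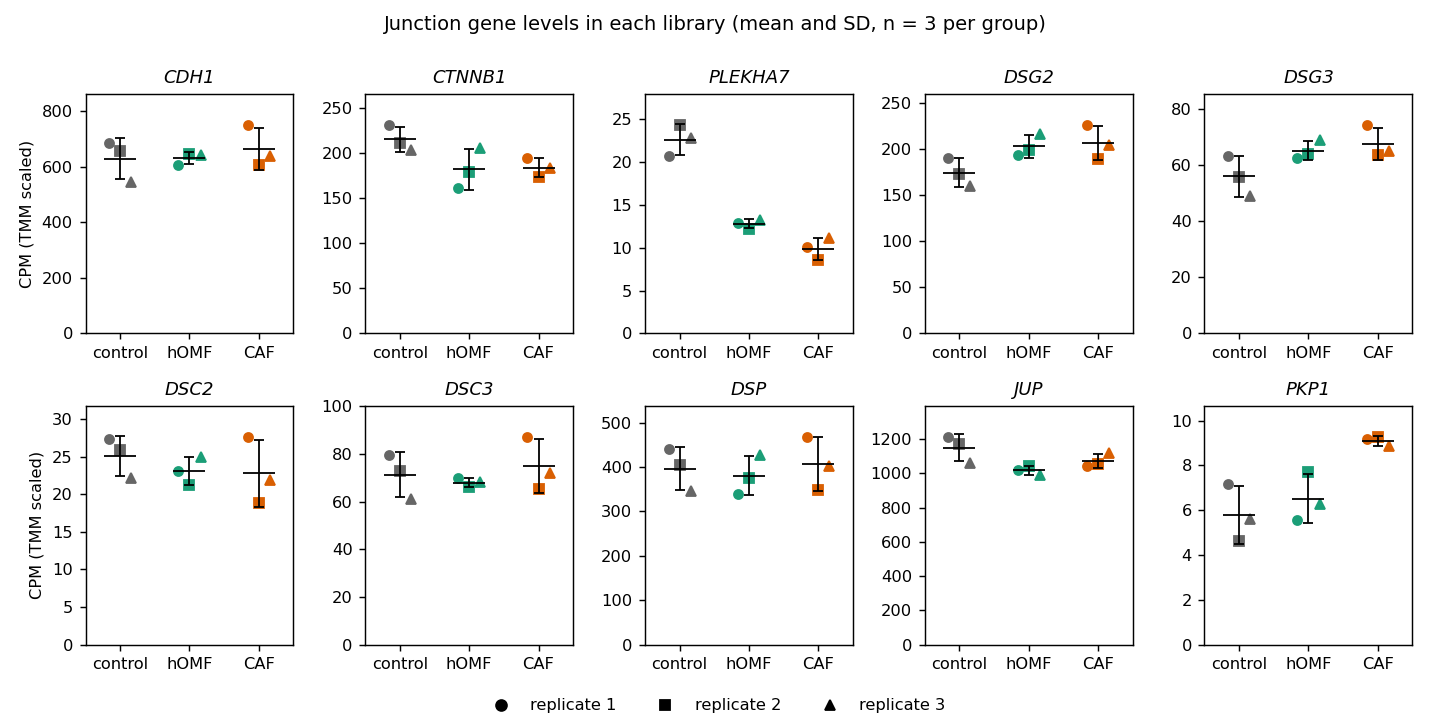
Level of each junction gene in CPM (linear axis from 0) in the 9 libraries; each point is a library, its shape the replicate number, and bars give the mean and SD of 3 libraries. PLEKHA7 lies at 20.7 to 24.3 CPM in control and at most at 13.3 CPM in the exosome libraries, and PKP1 lies at 8.85 to 9.28 CPM with CAF exosomes and at most at 7.69 CPM elsewhere.

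CDH1 (gene ID 999, chr16:68737225-68835548, plus strand; all gene positions are from GENCODE release 29 on GRCh38) encodes E-cadherin. Its level was 686, 659 and 545 CPM in control replicates 1 to 3. It was 606, 647 and 643 CPM with hOMF exosomes, and 749, 605 and 638 CPM with CAF exosomes. The 3 groups overlapped fully, with the highest value in CAF exosome replicate 1 and the lowest in control replicate 3. The log2 difference from control was 0.08 (SE 0.09, 95% interval -0.12 to 0.27, adjusted p = 0.600) with CAF exosomes. With hOMF exosomes it was 0.00 (interval -0.19 to 0.20). Changes of more than 1.21-fold up or 1.09-fold down thus lay outside the interval for CAF exosomes. Without control replicate 3 the differences were -0.02 and -0.09, again not called. Of 20 alternative analyses, 18 kept the sign of the difference with CAF exosomes and 17 that with hOMF exosomes.

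CTNNB1 (gene ID 1499, chr3:41194741-41260096, plus strand) encodes beta-catenin, which links E-cadherin to alpha-catenin and also carries Wnt signals to the nucleus. The control libraries stood at 231, 212 and 204 CPM. CAF exosome libraries stood at 195, 174 and 184 CPM, all below control, and hOMF exosome libraries at 161, 179 and 206 CPM, of which the last fell within the control range. The log2 difference was -0.23 (SE 0.09, adjusted p = 0.0826) with CAF exosomes and -0.24 (SE 0.09, adjusted p = 0.0564) with hOMF exosomes. Neither passed the threshold, although 2 of 20 alternative analyses called the first and 4 of 20 the second. They were -0.27 and -0.28 without control replicate 3, again not called.

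PLEKHA7 (gene ID 144100, chr11:16777317-17014443, minus strand) encodes a protein that binds p120-catenin at the apical adherens junction and there anchors the minus ends of microtubules. Control libraries held 20.7, 24.3 and 22.9 CPM. The hOMF exosome libraries held 12.9, 12.2 and 13.3 CPM, and the CAF exosome libraries 10.1, 8.51 and 11.1 CPM. The groups formed 3 separate bands, control highest and CAF exosomes lowest. The means were 22.6 ± 1.80 CPM in control, 12.8 ± 0.537 CPM with hOMF exosomes and 9.90 ± 1.30 CPM with CAF exosomes (SD, n = 3). PLEKHA7 fell by 1.19 on the log2 scale with CAF exosomes (SE 0.11, 95% interval -1.43 to -0.95, adjusted p = 2.08e-05 by edgeR), where its p was the 8th smallest of 12470. It fell by 0.82 with hOMF exosomes (SE 0.11, interval -1.05 to -0.59, adjusted p = 0.000115), ranking 144th. Both calls held in all 20 alternative analyses, with log2 differences of -1.28 to -0.83 and of -0.88 to -0.57, and without control replicate 3 they were -1.18 and -0.81. The gene was read at 100 to 287 counts per library. An exon of the pseudogene OR7E14P lies opposite a PLEKHA7 exon, and since no source used here says whether counting was stranded, reads of the overlap cannot be assigned to a strand.

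Compared directly, PLEKHA7 was 0.37 lower on the log2 scale with CAF than with hOMF exosomes (SE 0.12, interval -0.63 to -0.12, unadjusted p = 0.00678 in the edgeR fit across all genes). All 3 CAF exosome libraries lay below all 3 hOMF exosome libraries. After adjustment over 12470 genes the p was 0.454, so the step between both kinds of exosome did not pass the test. Measured per transcript length, as FPKM, PLEKHA7 stood at 3.23% ± 0.546 of the CDH1 level in control, at 1.84% ± 0.122 with hOMF exosomes and at 1.38% ± 0.186 with CAF exosomes (SD, n = 3).

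**Figure D2:**
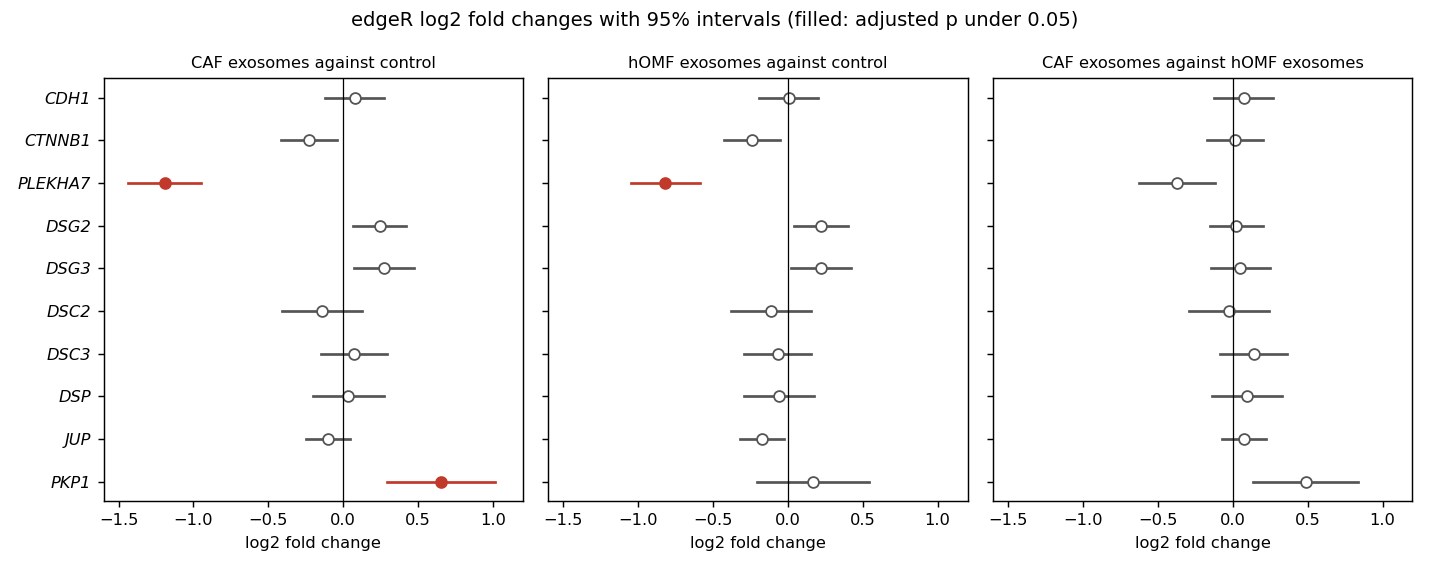
Log2 fold change of each junction gene (x axis) with its 95% interval in the 3 comparisons, from the edgeR fit over 9 libraries; filled red points passed an adjusted p under 0.05. PLEKHA7 is filled in both comparisons with control, PKP1 with CAF exosomes, and none is filled between CAF and hOMF exosomes.

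Desmogleins and desmocollins, the cadherins of the desmosome, are encoded side by side on chromosome 18. Their cluster spans 559 kb and holds 7 protein-coding genes, in the order DSC3, DSC2, DSC1, DSG1, DSG4, DSG3 and DSG2. DSG1 and DSG4 were not analysed here, and DSC1 had too few counts to be tested. DSG2 (gene ID 1829, chr18:31498043-31549008, plus strand) is the desmoglein of simple epithelia and of proliferating cells. It stood at 191, 173 and 159 CPM in control, at 193, 199 and 217 CPM with hOMF exosomes and at 225, 189 and 204 CPM with CAF exosomes. All hOMF exosome libraries lay above control, while CAF exosome replicate 2 lay just below control replicate 1. Its log2 difference was 0.24 (SE 0.08, adjusted p = 0.0561) with CAF exosomes and 0.22 (SE 0.08, adjusted p = 0.0695) with hOMF exosomes, both short of the threshold.

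DSG3 (gene ID 1830, chr18:31447795-31478702, plus strand) is a desmoglein of stratified epithelium and the main target of autoantibodies in pemphigus vulgaris. It stood at 63.5, 55.8 and 49.0 CPM in control, at 62.5, 64.2 and 69.0 CPM with hOMF exosomes and at 74.2, 63.8 and 64.9 CPM with CAF exosomes. The CAF exosome libraries lay above all control libraries by a narrow margin, and the hOMF exosome libraries overlapped control. Differences on the log2 scale were 0.27 (SE 0.09, adjusted p = 0.0554) and 0.22 (SE 0.09, adjusted p = 0.1003). These desmoglein differences lay close to the threshold and moved across it with the analysis. DSG2 was called in 7 and DSG3 in 6 of 20 alternatives for CAF exosomes, and in 7 and 3 of 20 for hOMF exosomes. Without control replicate 3, the lowest of the controls for both genes, DSG2 differed by 0.18 (adjusted p = 0.203) and DSG3 by 0.18 (adjusted p = 0.228) with CAF exosomes, and by 0.16 (adjusted p = 0.237) and 0.13 (adjusted p = 0.370) with hOMF exosomes. Parts of the DSG3 reads were shared with other genes in the authors' estimate, since its counts were not whole in 9 of 9 libraries, whereas those of DSG2 were not whole in 3.

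DSG2 and DSG3 moved together from library to library, with Pearson's r of 0.98 for log2 CPM over the 9 libraries and 0.95 after group means were subtracted. The pair shares long transcripts and the same libraries, and r is given as a description. Because they moved together, their upstream sequences are printed side by side, taken from RefSeq on GRCh38.p14 and ending before the first annotated exon. The stretches are chr18:31497927-31498042 for DSG2 and chr18:31447491-31447740 for DSG3, both on the plus strand. Capitals mark CACCTG, the E-box that SNAI and ZEB repressors bind, and GGGCGG, the GC box, on either strand.
DSG2: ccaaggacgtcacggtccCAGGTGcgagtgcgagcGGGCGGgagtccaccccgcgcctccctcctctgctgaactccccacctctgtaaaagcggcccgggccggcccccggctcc
DSG3: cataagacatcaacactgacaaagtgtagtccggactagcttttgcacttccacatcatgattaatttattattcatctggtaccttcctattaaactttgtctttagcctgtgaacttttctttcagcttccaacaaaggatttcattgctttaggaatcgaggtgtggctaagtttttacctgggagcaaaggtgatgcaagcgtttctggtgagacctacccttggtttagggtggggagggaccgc
The full windows differ in composition, and only 116 bases of the DSG2 window are printed. The 250 bases before the RefSeq start held 75.2% G and C with 26 CpG dinucleotides for DSG2, and 42.8% with 4 CpG dinucleotides for DSG3. The median of 34943 RefSeq promoter windows of this length was 58.0% with 11 CpG dinucleotides. Neither of the marked motifs was found in the DSG3 window, and each was found at 2 positions in the DSG2 window, of which 1 each lies in the printed stretch. The 8 junction genes with a RefSeq entry had 10 windows, of which 4 held CACCTG and 7 held GGGCGG. Among all promoter windows 17.5% held CACCTG and 42.5% held GGGCGG at any position. The TATA box TATAAA (in 10.8% of all windows) and the AP-1 motif TGANTCA (in 6.59%), searched on both strands, were found in 0 of the 8 genes. A match is only a run of letters and does not show that a factor binds there. CDH1 and PLEKHA7 are named without a sequence.

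DSC2 (gene ID 1824, chr18:31058840-31102522, minus strand) is the widely expressed desmocollin. It ranged from 22.2 to 27.3 CPM in control, from 21.2 to 25.0 CPM with hOMF exosomes and from 18.8 to 27.6 CPM with CAF exosomes. DSC3 (gene ID 1825, chr18:30990008-31042815, minus strand), the desmocollin of basal squamous cells, ranged from 61.2 to 79.6, from 65.9 to 69.8 and from 65.4 to 87.2 CPM in the same order. For both genes the exosome groups overlapped control, and CAF exosome replicate 1 was the highest library of all 9. The log2 differences from control were -0.14 (SE 0.13, interval -0.41 to 0.13) for DSC2 and 0.07 (SE 0.11, interval -0.15 to 0.30) for DSC3 with CAF exosomes. With hOMF exosomes they were -0.11 (interval -0.38 to 0.15) and -0.07 (interval -0.29 to 0.16). No alternative analysis called either gene. Without control replicate 3 the differences with CAF exosomes were -0.22 for DSC2 and -0.03 for DSC3, and those with hOMF exosomes -0.20 and -0.17.

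The summed FPKM of DSG2 and DSG3 was 41.8 ± 3.84 in control, 50.6 ± 3.33 with hOMF exosomes and 50.7 ± 4.46 with CAF exosomes (SD, n = 3). The summed FPKM of DSC2 and DSC3 was 14.1 ± 1.55, 13.9 ± 0.696 and 14.6 ± 2.25. The desmogleins thus stood at 2.97 ± 0.0938 times the desmocollins in control, against 3.65 ± 0.193 times with hOMF exosomes and 3.51 ± 0.220 times with CAF exosomes. In the individual libraries this ratio was 2.89 to 3.07 in control, 3.43 to 3.79 with hOMF exosomes and 3.25 to 3.67 with CAF exosomes, so that the exosome libraries did not overlap control. The ratio was formed after the values of single genes were known and was not tested. DSG2 made up 74.3% to 76.1% of the desmoglein sum in every library.

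DSP (gene ID 1832, chr6:7541575-7586717, plus strand) encodes desmoplakin, the link to keratin filaments. It stood at 441, 404 and 345 CPM in control, at 340, 375 and 426 CPM with hOMF exosomes and at 468, 347 and 403 CPM with CAF exosomes, with full overlap of the groups. Differences from control were 0.03 (SE 0.11, interval -0.20 to 0.27) and -0.06 (SE 0.11, interval -0.30 to 0.18) on the log2 scale. They were -0.06 and -0.15 without control replicate 3, and neither was called.

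JUP (gene ID 3728, chr17:41754604-41786931, minus strand) encodes plakoglobin, or gamma-catenin, the junction protein found at both desmosomes and adherens junctions. Control libraries stood at 1215, 1172 and 1062 CPM. The hOMF exosome libraries stood at 1019, 1045 and 990 CPM, all below control, and the CAF exosome libraries at 1045, 1057 and 1117 CPM, which overlapped control replicate 3. The log2 difference was -0.18 (SE 0.07, adjusted p = 0.0795) with hOMF exosomes and -0.10 (SE 0.07, adjusted p = 0.338) with CAF exosomes. The hOMF difference was called by DESeq2 (adjusted p = 0.0408) and, at -0.23, when control replicate 3 was left out (adjusted p = 0.0397 by edgeR), where the difference with CAF exosomes was -0.15 (adjusted p = 0.181).

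PKP1 (gene ID 5317, chr1:201283452-201332993, plus strand) encodes plakophilin 1, which gathers desmoplakin at the desmosomal plaque of stratified epithelium. It stood at 7.18, 4.61 and 5.58 CPM in control, at 5.55, 7.69 and 6.27 CPM with hOMF exosomes and at 9.19, 9.28 and 8.85 CPM with CAF exosomes. The 3 CAF exosome libraries lay close together and above all 6 others, while hOMF exosomes and control overlapped. PKP1 rose by 0.65 on the log2 scale with CAF exosomes (SE 0.17, 95% interval 0.29 to 1.01, adjusted p = 0.0150 by edgeR). The call held in 19 of 20 alternatives and was lost without control replicate 2, the lowest library, where the difference was 0.52 (adjusted p = 0.0725). It was 0.63 without control replicate 3 (adjusted p = 0.0437). With hOMF exosomes the difference was 0.17 (SE 0.18, interval -0.20 to 0.54, adjusted p = 0.525), and 0.14 without control replicate 3. The direct difference between CAF and hOMF exosomes was 0.49 (SE 0.17, interval 0.13 to 0.84, unadjusted p = 0.00975 in the edgeR fit across all genes), with an adjusted p of 0.482. A rise confined to CAF exosomes is thus not shown. PKP1 was read at only 51 to 109 counts per library.

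Between CAF and hOMF exosomes 0 of the 10 junction genes were called, where edgeR called 0.016% of all genes, 0.00802% higher and 0.00802% lower. At an unadjusted p under 0.05 there were 2 junction genes, PLEKHA7 and PKP1, beside 7.59% of all genes. DESeq2 also called 0 junction genes, but gave no adjusted p for PLEKHA7 and PKP1 in this comparison. JUP, PKP1 (both higher with CAF exosomes) and PLEKHA7 (lower) were the 3 genes whose CPM did not overlap between both exosome groups, against 13.7% of all genes (7.15% higher and 6.59% lower). In the comparisons with control, groups did not overlap for 4 genes with CAF exosomes (DSG3 and PKP1 higher, CTNNB1 and PLEKHA7 lower) and 3 with hOMF exosomes (DSG2 higher, PLEKHA7 and JUP lower), against 36.2% and 39.5% of all genes. Split by direction, these shares of all genes were 18% higher and 18.2% lower with CAF exosomes and 20.2% higher and 19.3% lower with hOMF exosomes. The largest absolute log2 difference among the other 8 genes between both exosome groups was 0.14, for DSC3 (interval -0.08 to 0.36).

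Levels of different genes were compared per transcript length. In control cells JUP was highest at 360 FPKM, followed by CDH1 (136), CTNNB1 (68.6), DSP (43.9), DSG2 (31.5), DSG3 (10.4), DSC3 (9.47), DSC2 (4.62), PLEKHA7 (4.34) and PKP1 (1.13). The libraries of neighbours in this order overlapped for DSG3 with DSC3 and for DSC2 with PLEKHA7. The order of the means was the same in all 3 groups. With exosomes the fall of PLEKHA7 put it clear of DSC2, at 2.60 FPKM with hOMF and 2.01 FPKM with CAF exosomes. With CAF exosomes its libraries overlapped those of PKP1, which stood at 1.80 FPKM. DSP and DSG2 overlapped in both exosome groups.

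**Figure D3:**
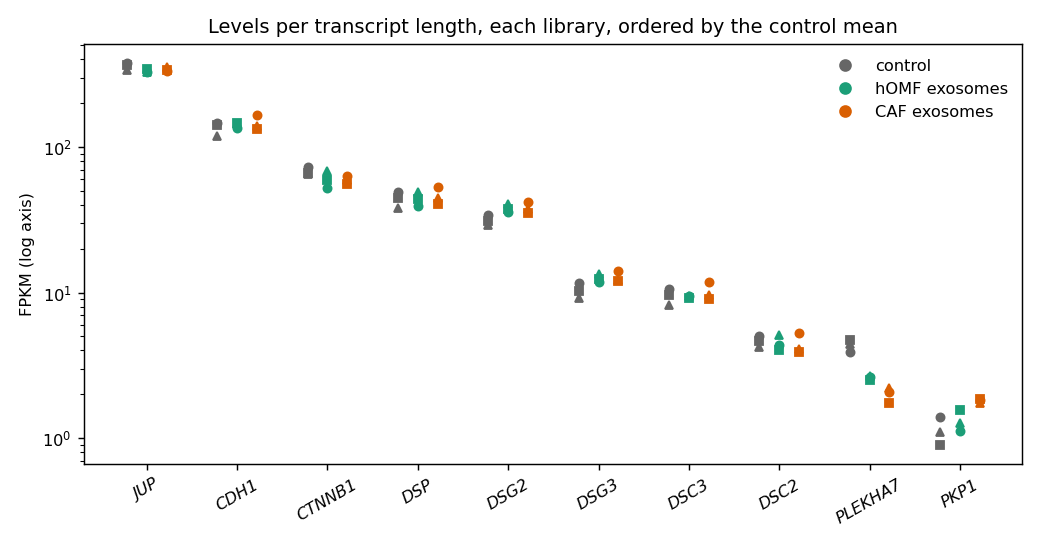
FPKM of the junction genes (log axis) in the 9 libraries, ordered by the control mean; colours are groups and shapes replicate numbers (circle 1, square 2, triangle 3). JUP lies at 326 to 378 FPKM and PKP1 at 0.890 to 1.84 FPKM, and PLEKHA7 descends towards PKP1 from control to hOMF to CAF exosomes.

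Most junction genes followed a shared pattern among replicates. Control replicate 1 was the highest control library for 9 of the 10 genes and control replicate 3 the lowest for 8. Over all tested genes these shares were 36.6% and 37.9%. CAF exosome replicate 1 was the highest of its group for 7 genes and CAF exosome replicate 2 the lowest for 8, against 35.7% and 37.5% of all tested genes. Among the long transcripts described next, these 4 shares were 43.3%, 46.8%, 56.3% and 64.5%. Among 3001 tested genes with transcripts of at least 4500 bases, to which 8 of the 10 junction genes belong, the median deviation from the group mean was 0.07 in CAF exosome replicate 1 and -0.09 in replicate 2 on the log2 scale. The junction genes deviated in the same direction by medians of 0.14 and -0.13. In control replicates 1 and 3 the medians were 0.03 and -0.03 for long transcripts, but 0.13 and -0.15 for junction genes. In hOMF exosome replicates 1 and 3 they were -0.05 and 0.05 for long transcripts, and -0.06 and 0.07 for junction genes. The part of transcript length in this pattern was not tested. With group means subtracted, 41 of 45 pairs of junction genes were positively correlated, with a median r of 0.45 over 9 libraries. Over the 9 libraries CDH1 paired most closely with DSC3 (0.91, and 0.93 within groups) and with DSP (0.88, and 0.89 within groups). Within groups its r with DSG3 was 0.92, above that with DSP. PLEKHA7 and PKP1 ran against each other, with r of -0.79 over all libraries and -0.58 within groups.

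**Figure D4:**
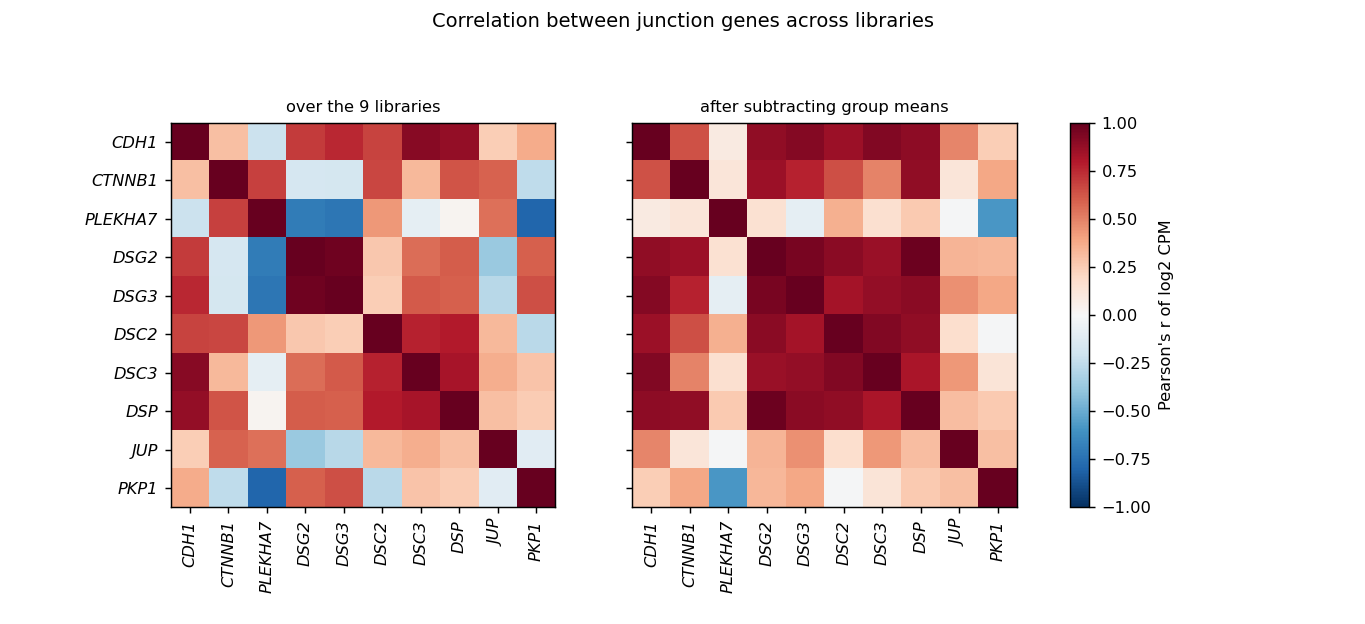
Pearson's r of log2 CPM between junction genes, over 9 libraries (left) and after group means were subtracted (right); red is positive and blue negative. Of 45 pairs, 33 are positive on the left and 41 on the right, with DSG2 and DSG3 at 0.98 and 0.95.

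Among 9305 other genes with a mean of at least 10 CPM, those most like CDH1 over the 9 libraries were SERINC3 (r = 0.97), IGF1R (0.95) and ERO1A (0.94). Those most like PLEKHA7 were ZNF646, STK10 and KIF3C, each at 0.97. All of the latter were lower with both kinds of exosome, with log2 differences of -0.46, -0.42 and -0.51 with CAF exosomes and -0.38, -0.32 and -0.31 with hOMF exosomes, smaller than those of PLEKHA7. These r values include the differences between group means. The shared direction of PLEKHA7 and the genes picked for likeness to it thus follows from how they were picked, and is no separate result.

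Other junction genes were taken from prepared lists. Over all tested genes 9.51% were called higher and 8.64% lower with CAF exosomes, and 11.8% and 11.4% with hOMF exosomes. Of 11 further desmosomal genes 7 were tested, and 0 were called higher and 0 lower in either comparison, with median log2 differences of 0.04 with CAF and 0.11 with hOMF exosomes. PKP3, the plakophilin of most epithelia, was at 162 CPM with CAF exosomes and 161 CPM with hOMF exosomes against 190 CPM in control (adjusted p = 0.0857 and 0.0642). Of 18 tested adherens junction genes, CDH3 (P-cadherin) was higher with CAF exosomes, at 639 against 526 CPM, a log2 difference of 0.28 (SE 0.07, adjusted p = 0.0129). This call was lost without control replicate 3 (0.22, adjusted p = 0.0587). ARVCF, a catenin of the p120 family, was lower with CAF exosomes by -0.33 (SE 0.09, adjusted p = 0.0205) and with hOMF exosomes by -0.34 (SE 0.09, adjusted p = 0.0133). Without control replicate 3 the first of these ARVCF differences was -0.33 (adjusted p = 0.0518). The ARVCF calls held in 15 of 20 alternatives with CAF exosomes and in 16 of 20 with hOMF exosomes. The other 16 adherens junction genes were not called, and the list medians were 0.02 and 0.03.

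Of 20 tested tight junction genes 1 was called higher and 1 lower with CAF exosomes, and 3 higher and 2 lower with hOMF exosomes. The shares of all tested genes were 9.51% higher and 8.64% lower with CAF exosomes, and 11.8% and 11.4% with hOMF exosomes. TJP3, the scaffold ZO-3, rose from 20.7 to 37.3 CPM with hOMF exosomes, a log2 difference of 0.84 (SE 0.13, adjusted p = 0.000383). CGN, cingulin of the tight junction plaque, rose from 18.7 to 26.8 CPM with hOMF exosomes (0.51, SE 0.10, adjusted p = 0.00150). With CAF exosomes CGN was at 23.0 CPM (0.29, adjusted p = 0.0482), a call that held in only 6 of 20 alternatives. The list medians were 0.01 and -0.01.

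Over all tested genes 18.2% were called with CAF exosomes and 23.2% with hOMF exosomes. Among 13 tested genes of cadherin turnover and beta-catenin destruction, 1 was called in each comparison. It was GSK3A, a kinase that marks beta-catenin for destruction, which fell by 0.33 with CAF exosomes (SE 0.08, adjusted p = 0.0118) and by 0.38 with hOMF exosomes (SE 0.08, adjusted p = 0.00385). The first call was lost without CAF exosome replicate 1 or without control replicate 2. A further list held 11 tested regulators known to raise epithelial junction genes, transcription factors apart from the splicing regulators ESRP1 and ESRP2. Of these, GRHL2 rose by 0.32 with hOMF exosomes (SE 0.08, adjusted p = 0.00679). KLF4 was lower by -0.31 with CAF and -0.33 with hOMF exosomes (adjusted p = 0.0385 and 0.0247), the first held in 7 and the second in 13 of 20 alternatives. With CAF exosomes 0 were called higher and 1 lower, and with hOMF exosomes 1 higher and 2 lower. By direction, the shares of all tested genes were 9.51% higher and 8.64% lower with CAF exosomes, and 11.8% and 11.4% with hOMF exosomes.

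Of 8 listed repressors of CDH1, 6 were tested. TCF3, which encodes the E-box factors E12 and E47, fell by 0.28 with hOMF exosomes (SE 0.08, adjusted p = 0.0154). This call held in 15 of 20 alternatives and was lost without hOMF exosome replicate 2 or 3, or without control replicate 2. ZEB2 was called lower with CAF exosomes (-2.82, SE 0.94, adjusted p = 0.0473), but its level was 0.273, 0.723 and 13.9 CPM in control replicates 1 to 3 and 0.511 to 0.835 CPM with CAF exosomes. Control replicate 3, the library with high VIM and PTPRC, was the only control above 0.723 CPM. Without it the log2 difference was 0.51 (adjusted p = 0.560). Between CAF and hOMF exosomes 0 genes of any of these lists were called, where 0.016% of all tested genes were called.

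Keratins, whose filaments are anchored at desmosomes, stood on the list of squamous markers. Of 12 tested squamous markers 5 were called higher with CAF exosomes and 2 with hOMF exosomes, and 0 lower. Over all tested genes 9.51% were called higher and 8.64% lower with CAF exosomes, and 11.8% and 11.4% with hOMF exosomes. KRT5 was at 826, 715 and 702 CPM in control, at 1074, 1047 and 1064 CPM with hOMF exosomes and at 1240, 1192 and 1264 CPM with CAF exosomes, in 3 bands without overlap. It rose by 0.72 with CAF (SE 0.07, adjusted p = 2.09e-05) and by 0.51 with hOMF exosomes (SE 0.07, adjusted p = 0.000197), and both calls held in 20 of 20 alternatives. KRT14, its partner in basal cells, rose from 9.64 to 21.1 CPM with CAF exosomes, by 1.14 (SE 0.18, adjusted p = 0.000625). With hOMF exosomes KRT14 was at 14.2 CPM (0.57, SE 0.19, adjusted p = 0.0379), and without control replicate 3 this difference was 0.35 (adjusted p = 0.167).

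Genes on lists of other cell types also moved with the groups. The shares of all tested genes called were 9.51% higher and 8.64% lower with CAF exosomes, and 11.8% and 11.4% with hOMF exosomes. Of 17 fibroblast markers 16 were in the table and 9 were tested, and 5 were called higher and 0 lower in each comparison. Their summed level was 816 to 860 CPM with CAF exosomes, 750 to 817 CPM with hOMF exosomes and 578 to 689 CPM in control, most of it SPARC. SPARC stood at 712 CPM with CAF exosomes against 539 CPM in control. COL6A1 rose by 0.64 with CAF exosomes (SE 0.11, adjusted p = 0.00115) and by 0.59 with hOMF exosomes (SE 0.11, adjusted p = 0.00136). ACTA2 rose by 0.46 with CAF exosomes (SE 0.13, adjusted p = 0.0281) and by 0.60 with hOMF exosomes (SE 0.13, adjusted p = 0.00441). LUM, a proteoglycan gene of connective tissue, was at 1.45 CPM in control and rose to 3.03 CPM with CAF exosomes (1.06, SE 0.25, adjusted p = 0.00805) and 2.78 CPM with hOMF exosomes (0.94, SE 0.25, adjusted p = 0.0130). COL1A1 ranged from 33.2 to 50.5 CPM, COL1A2 from 1.79 to 3.36 CPM and PDGFRB from 0.632 to 1.53 CPM in the 9 libraries, and these 3 were not called. Another 6 of the listed genes, COL3A1, DCN, THY1, FAP, POSTN and CDH11, stood at 0.160 CPM or less in every library. Of 7 endothelial markers 5 were in the table, with sums of 18.3 to 20.9, 17.9 to 21.4 and 22.4 to 31.7 CPM in CAF exosome, hOMF exosome and control libraries. CDH5, a cadherin of endothelium, made up most of that sum and fell by 0.69 with CAF exosomes (SE 0.13, adjusted p = 0.00274) and by 0.66 with hOMF exosomes (SE 0.13, adjusted p = 0.00256). Of 10 leukocyte markers 7 were in the table, with sums of 56.8 to 62.6, 51.1 to 58.8 and 53.7 to 85.2 CPM. Of these 4 were tested, and only CORO1A was called, in both comparisons. It differed by -1.57 with CAF exosomes (SE 0.47, adjusted p = 0.0314) and by -1.65 with hOMF exosomes (SE 0.48, adjusted p = 0.0206). Without control replicate 3 CORO1A differed by -0.46 and -0.54 and was not called (adjusted p = 0.327 and 0.218 by edgeR). The part of all these listed genes in the differences of junction genes was not tested. Without control replicate 3, the library with the highest leukocyte sum, PLEKHA7 differed by -1.18 and -0.81, against -1.19 and -0.82 with it. CDH5 still differed by -0.66 with CAF and -0.63 with hOMF exosomes without this library. TYROBP, a leukocyte gene, was at 0 in the other 8 libraries.

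**Figure D5:**
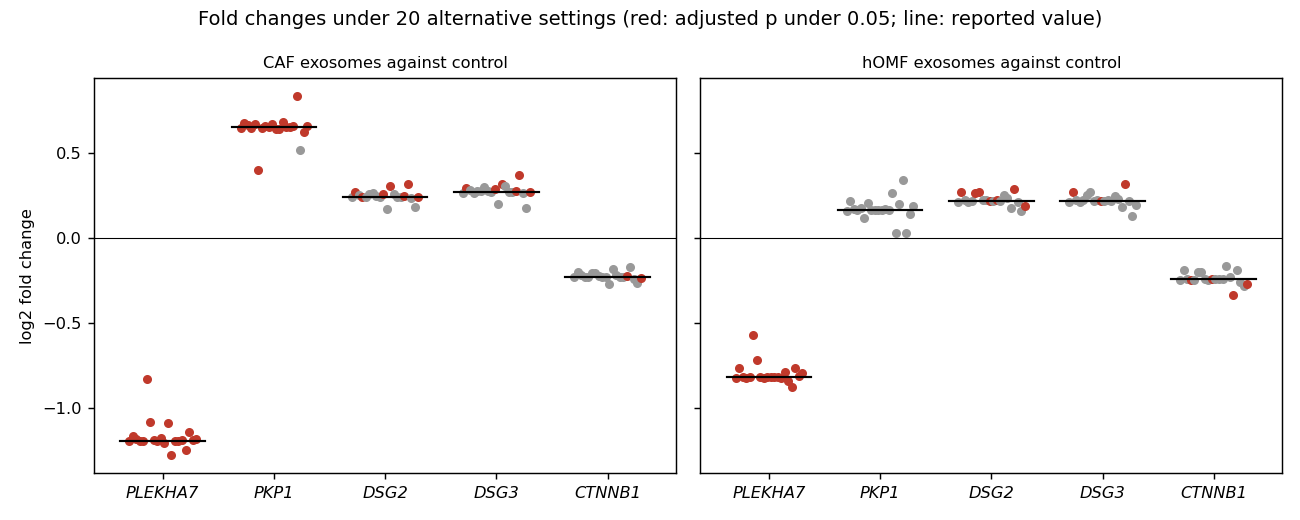
Log2 fold change (y axis) of 5 junction genes against control under 20 alternative analyses, each a point; red points passed an adjusted p under 0.05 and the line is the reported value. PLEKHA7 is red throughout, PKP1 with CAF exosomes is red in 19 of 20, and DSG2, DSG3 and CTNNB1 are red in a minority.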

How the data were processed

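The authors deposited 1 table with expected counts, FPKM and TPM of each library, per the file headers. The submitters' processing notes name Bowtie2 2.2.5 and RSEM 1.2.8, and also the mouse build mm10, although every identifier is human; which build gave the counts is therefore uncertain. RSEM divides reads between similar genes. No annotation or strand setting is given in the sources used here. FPKM deposited by the authors is scaled for transcript length and depth; TPM deposited by the authors was not used.

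Expected counts were rounded. Genes passed filterByExpr (minimum count 10, total 15), libraries were scaled by TMM, and edgeR 4.0.16 (R 4.3.3) fitted all 9 libraries with group as the only term, two-sided, with Benjamini-Hochberg adjustment over 12470 genes. The fit was tested on simulated data. Alternatives used DESeq2 1.42.0, limma 3.58.1 and left-out libraries. Replicates differed by more than counting noise (chi-square per degree of freedom 3.14 to 11.4). All 10 junction genes are named, and up to 2 called genes of each list with the smallest p; others (PKP3, ZEB2 by library, VIM, PTPRC and the fibroblast genes other than SPARC, COL6A1 and ACTA2) were chosen after their values were seen. The junction genes and the 10 lists were chosen with earlier results of these data known. Tight junction genes called lower are counted but not named here. Figures were drawn with matplotlib 3.10.9.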

Additional observations from a re-analysis of the deposited data

How the results depend on the processing

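Of the 20 alternatives, 19 were planned, and a joint correction for GC content and length was chosen after seeing the data. No called junction gene changed direction; among the listed genes ZEB2, called lower with CAF exosomes at -2.82, turned to 0.51 without control replicate 3. Besides PLEKHA7 and PKP1, alternatives added junction genes near the threshold. With CAF exosomes 2 were called, beside 2264 genes of the whole table. With library totals in place of TMM 4 were called, beside 2257 genes. There were 4 with a correction for transcript length and 5 with the correction for GC content and length. With hOMF exosomes 1 was called; 3 were called with library totals, 3 with DESeq2, 2 with limma on log2(FPKM + 1), 2 with a pseudocount of 0.1, 4 with the length correction and 3 with GC content and length. Leaving out 1 library gave 1 to 5 junction genes for CAF exosomes (5 without hOMF exosome replicate 3, 4 without CAF exosome replicate 2 or control replicate 1, 1 without control replicate 2) and 1 to 3 for hOMF exosomes. Over the whole table it gave 1343 to 2389 genes for CAF exosomes (1343 without CAF exosome replicate 3, 1389 without control replicate 2, 1442 without control replicate 3), 1695 to 3096 for hOMF exosomes (1695 without replicate 2) and 0 to 8 between the exosomes. Between the exosomes, where 2 genes of the whole table were called (947 at an unadjusted p under 0.05), 32 were called by DESeq2, 5 with the length correction, 20 with GC content and length, and 0 with library totals, limma-voom, limma on either FPKM scale or only the 2 groups compared. The cause of these moves was not tested. The share of calls that were higher, 52.4% and 50.9%, was 63.1% and 67.0% with library totals, 64.0% and 68.7% with limma on log2(FPKM + 1), and 64.5% and 69.0% with a pseudocount of 0.1. With GC content and length it was 47.2% and 45.2%. Replicate numbers recur in the groups, and deviations of same-numbered libraries correlated at -0.154 to 0.140. Differently numbered libraries were not set beside them, so these values do not show whether same numbers share a batch or culture. With the replicate block 2101, 2718 and 2 genes of the whole table and 2, 1 and 0 junction genes were called. At this depth PKP1, at 51 to 109 counts, has an interval from 0.29 to 1.01.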
